A study of Mus musculus with 45 samples.

Results

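Rgs11, Slc19a3 and Samd7 are 3 of the 55401 genes in the deposited count tables, taken by gene symbol in the time course, washout and sorting tables and by Ensembl identifier in the Dppa4 table. They were chosen from sorted cells, for a high or larger effect of EHMT2 degradation in 2-cell-like cells (2CLC), so their sorted-cell values are given as a description with no test. The sorted means bore out "mainly in 2CLC" for 1 of the 3 genes. Slc19a3 was higher with degradation in 2CLC and not in mESC, whereas Samd7 was higher in both populations and more so in mESC, and Rgs11 was lower in mESC and higher in 2CLC. The genes are therefore called by name below.

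Mouse embryonic stem cells (mESCs) were profiled by RNA-seq in 15 groups of 3 libraries, 45 in all. In the EHMT2-dTAG-mcherry lines (BL6/129), a degron was placed in frame at both copies of Ehmt2, so controls and treated cells alike carried the tagged protein, and dTAG-13 (dTAG) removed it against a DMSO control. Clones of this line received DMSO or dTAG for 24 h or 7 d, or DMSO for 15 d, dTAG for 15 d, or dTAG for 7 d followed by 8 d in DMSO (Recovery). For sorting, such cells with a MERVL-GFP reporter received DMSO or dTAG for 72 h and were divided into GFP-positive cells (2CLC) and GFP-negative cells (mESC), so that the gate defines a 2CLC here. Separately, 3 clones each of WTJ1 mESCs and of DPPA4KO mESCs, made with CRISPR/Cas9, received DMSO or UNC0638, an inhibitor of the EHMT1 and EHMT2 enzymes, for 48 h. The cultures were kept on fibroblast feeders.

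EHMT2 (G9a) forms a complex with EHMT1 that methylates lysine 9 of histone H3, a mark of silenced chromatin. A small part of an mESC culture passes through a state in which genes and MERVL repeats of the 2-cell embryo are transcribed, and DPPA4 is known to activate these genes. The 3 genes have unrelated products. Rgs11 encodes a regulator of G protein signalling of the R7 family, which speeds the switching-off of Gi and Go proteins, pairs with the beta subunit GNB5 and is known from retinal ON bipolar cells. Slc19a3 encodes a plasma membrane transporter of thiamine (vitamin B1). Samd7 encodes a SAM domain protein known from photoreceptors, where it works with Polycomb complexes as a repressor.

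By GENCODE vM21, on the mm10 (GRCm38) build that the authors also used, Rgs11 lies at chr17:26202951-26211324 on the plus strand. Slc19a3 lies at chr1:83012523-83038448 on the minus strand, and Samd7 at chr3:30746293-30767174 on the plus strand. All 3 are annotated as protein-coding. Rgs11 overlaps Arhgdig on the opposite strand, with 138 exonic bases in common, and an intron of Slc19a3 holds the processed pseudogene Gm7539, also on the opposite strand. Samd7 overlaps no annotated gene. Promoter sequences from RefSeq (build GRCm38.p6), 250 bases before and 50 after the start, matched 2 of the 3 genes and are shown because these regions precede the genes that were higher after EHMT2 degradation. Each is written 5′ to 3′ along the strand of its gene. Capitals mark ATGCAAA, the core of the octamer read by POU factors such as OCT4, and GGATTA, the core read by OTX and CRX factors. The Slc19a3 window is chr1:83038399-83038698 and the Samd7 window is chr3:30746043-30746342.
Slc19a3: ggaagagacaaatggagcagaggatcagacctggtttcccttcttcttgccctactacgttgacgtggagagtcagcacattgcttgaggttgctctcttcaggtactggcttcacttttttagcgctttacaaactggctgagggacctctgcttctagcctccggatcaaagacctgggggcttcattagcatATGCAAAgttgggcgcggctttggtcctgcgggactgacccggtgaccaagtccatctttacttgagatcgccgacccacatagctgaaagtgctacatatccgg
Samd7: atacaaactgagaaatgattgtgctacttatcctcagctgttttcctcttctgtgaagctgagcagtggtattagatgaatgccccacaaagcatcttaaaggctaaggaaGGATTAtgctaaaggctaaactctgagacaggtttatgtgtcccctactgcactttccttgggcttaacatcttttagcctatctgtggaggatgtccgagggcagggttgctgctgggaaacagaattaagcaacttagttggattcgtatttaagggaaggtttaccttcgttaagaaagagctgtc

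The Slc19a3 window held 11 CpG dinucleotides and was 52% G and C, and the Samd7 window held 3 and was 43% G and C, against a median of 7 CpG over 32851 promoters. ATGCAAA, on either strand, occurred in 4.63% of those promoters and once in the Slc19a3 window. GGATTA, on either strand, occurred in 7.06% and once in the Samd7 window. The TATA box TATAAA, held by 13.6% of promoters, and the GC box GGGCGG, held by 35.7%, were in neither window. These motifs do not overlap one another, ATGCAAA was added after the sequences had been seen, and a match is a string of letters, not a measured binding site.

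The tables of the dTAG experiments give the authors' mean of DESeq2-normalized counts for each group and no value per library. No SD, n or test therefore stands beside those means, and 1 library could carry any of them. A gene is said to pass the fold where the log2 ratio of 2 means, each with 1 added, is at least 1 in size. The background is the share of genes with a mean of at least 10 in any group of the table that do so. Samd7 reached 10 only in dTAG groups, in each of the 3 tables, so its ranks and shares there are a description. The 3 tables were normalized separately, and levels are compared only within a table. The Ehmt2 transcript does not check the degradation, which acts on the protein. Its mean lay between 546 and 691 in the 7 unsorted groups.

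In the sorted cells the means of the 3 genes with and without dTAG followed 3 different orders. Slc19a3 had a mean of 23.6 in DMSO mESC, 22.5 in dTAG mESC, 71.5 in DMSO 2CLC and 558 in dTAG 2CLC. The dTAG 2CLC therefore stood far above the other groups, 7.81-fold over DMSO 2CLC and 24.8-fold over dTAG mESC. The log2 ratio of dTAG to DMSO was 2.95 in 2CLC and -0.07 in mESC. In DMSO alone the 2CLC were already 3.03-fold above the mESC. By rank, 93.6% of all genes had a lower mean than Slc19a3 in dTAG 2CLC, and 74.5% did in dTAG mESC.

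**Figure D1:**
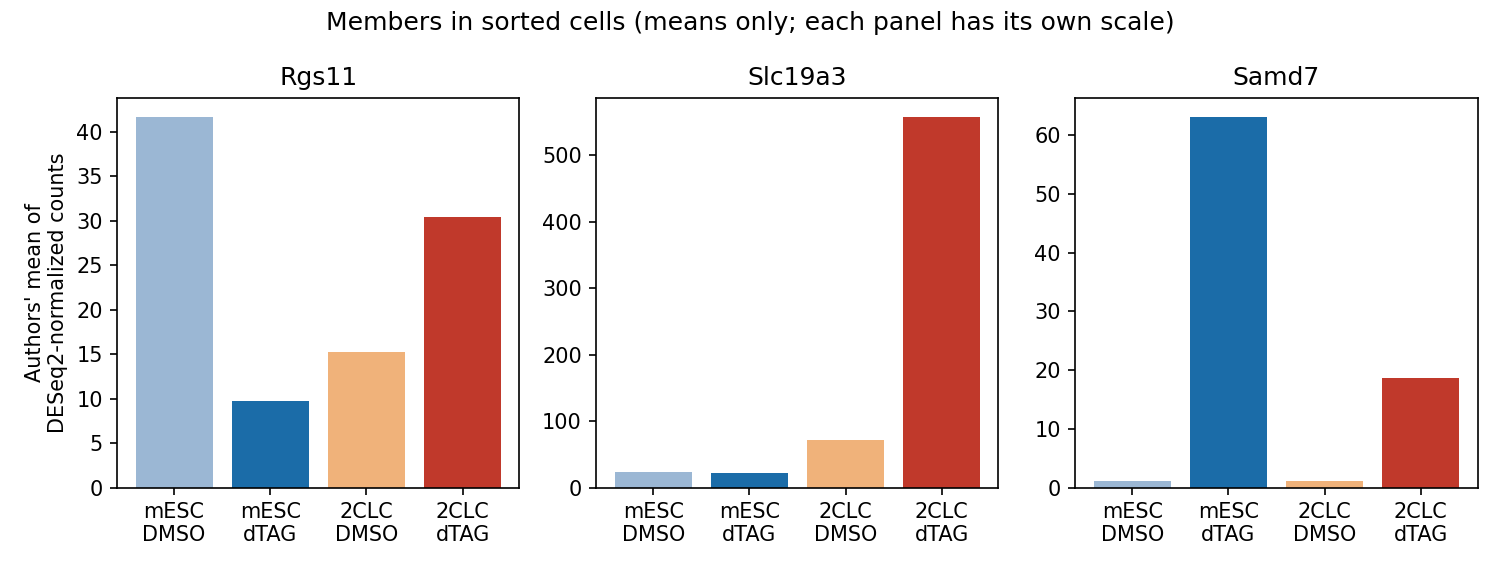
Bars give the authors' mean of DESeq2-normalized counts (vertical axis, starting at 0, a separate scale in each panel) for Rgs11, Slc19a3 and Samd7 in sorted mESC and 2CLC given DMSO or dTAG; no error is shown because only means were deposited. Slc19a3 stands at 558 in dTAG 2CLC, Samd7 is highest in dTAG mESC at 63.2, and Rgs11 is highest in DMSO mESC at 41.7.

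Samd7, the photoreceptor repressor, was close to 0 in both DMSO populations, with means of 1.06 in mESC and 1.10 in 2CLC. With dTAG it reached 63.2 in mESC and 18.7 in 2CLC. The log2 ratios were 4.97 in mESC and 3.23 in 2CLC, so that the dTAG 2CLC had 3.37-fold less Samd7 than the dTAG mESC. Of 19051 genes, 3 had a higher ratio in mESC and 5 in 2CLC. Samd7 entered those 19051 genes only through its dTAG means, so nothing is read from these ranks. With a pseudocount of 5 the ratios were 3.49 and 1.96, in the same order.

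Rgs11, the G protein regulator, had its highest sorted mean, 41.7, in DMSO mESC. It was 9.77 in dTAG mESC, 4.27-fold lower, and 15.2 and 30.4 in DMSO and dTAG 2CLC, 2.00-fold higher with dTAG. The log2 ratios were -1.99 in mESC and 0.95 in 2CLC, the latter just short of the fold. The order of the populations thus turned over, with Rgs11 2.74-fold lower in 2CLC than in mESC in DMSO and 3.11-fold higher in dTAG.

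Taken as the ratio in 2CLC minus that in mESC, on the log2 scale, Slc19a3 stood at 3.01 and Rgs11 at 2.94, while Samd7 stood at -1.73. Over 19051 genes the median was -0.04, with 7 genes above Slc19a3, 8 above Rgs11 and 628 below Samd7. The shares of genes past the fold were 5.93% higher in 2CLC with dTAG, where Slc19a3 and Samd7 passed, and 8.41% higher in mESC, where Samd7 passed. In mESC with dTAG 2.5% were lower, Rgs11 among them. Between populations in DMSO, 18.1% of genes were higher in 2CLC (Slc19a3) and 9.23% lower (Rgs11), and in dTAG 16% were higher (Slc19a3 and Rgs11) and 7.78% lower (Samd7). These contrasts served to choose the genes, and nothing is read from the counts.

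**Figure D2:**
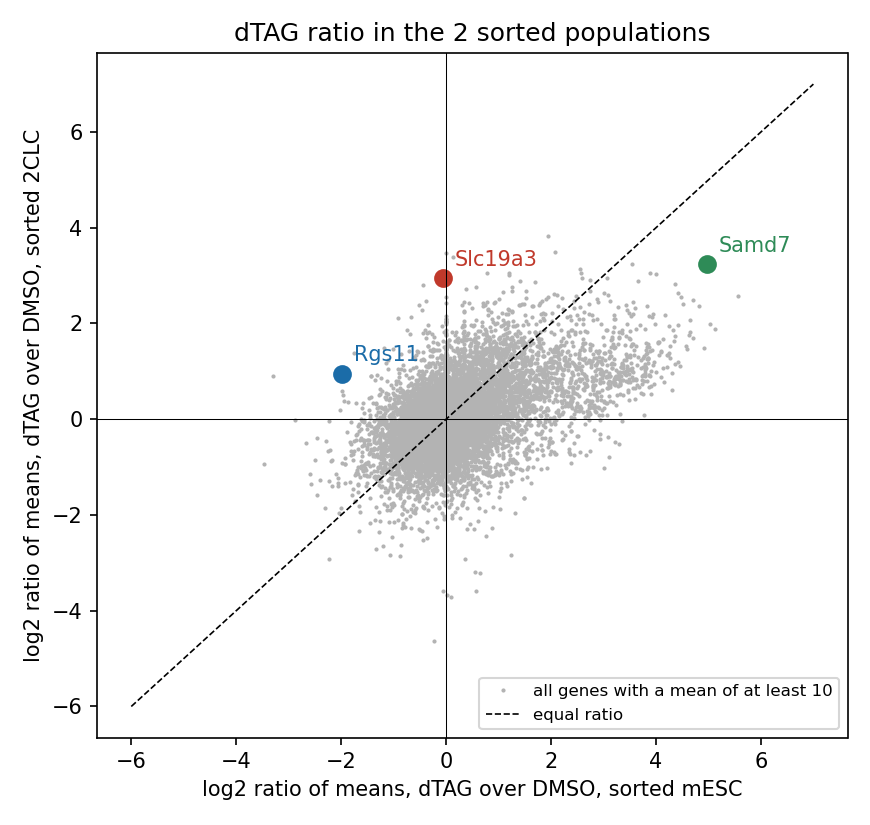
Each grey point is 1 of 19051 genes, with the log2 ratio of dTAG to DMSO means in sorted mESC (horizontal) and in sorted 2CLC (vertical); the dashed line marks equal ratios. Slc19a3 (-0.07, 2.95) and Rgs11 (-1.99, 0.95) lie above the line, and Samd7 (4.97, 3.23) lies below it.

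The sorted 2CLC carried the markers their name calls for. All 20 listed 2C markers were past the fold in 2CLC against mESC, in DMSO and in dTAG. Pluripotency markers set the populations apart less. Of 10 listed, 4 (Sox2, Klf4, Esrrb and Tfcp2l1) were past the fold lower in 2CLC, in DMSO and in dTAG, and the rest were not. Zscan4c, a telomere-associated gene of the 2-cell embryo, had means of 255 and 44464 in DMSO mESC and 2CLC and of 1934 and 52636 with dTAG. GFP-negative dTAG cells were not free of this programme, since the summed mean of the 20 markers was 17682 there against 1886 in DMSO mESC and 411764 in dTAG 2CLC. Fibroblast markers moved with dTAG as well. The 12 listed genes summed to 8189 and 10447 in mESC without and with dTAG and to 5396 and 10335 in 2CLC, with 6 and 8 of the 10 that passed the filter past the fold. In dTAG 2CLC 1 of the 12 was at 0. The part of any of these marker sets in the values of Rgs11, Slc19a3 and Samd7 was not tested.

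In unsorted cultures, Samd7 had the higher mean with dTAG at each time, in 2 of 2 comparisons. It stood at 4.79 in DMSO and 29.5 in dTAG at 24 h, 6.15-fold higher, and at 1.85 and 82.3 at 7 d, 44.6-fold higher. In log2 terms the ratios were 2.39 and 4.87, and 16 of 19002 genes had a higher ratio at 7 d. Samd7 entered those 19002 genes only through its dTAG means, so nothing is read from this rank. Because its DMSO means were so low, a pseudocount of 5 gave 1.82 and 3.67. Samd7 was 1 of the 3 genes past the fold upward at each time, where 4.24% of all genes were at 24 h and 5.33% at 7 d.

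Slc19a3 and Rgs11 took the other direction by 7 d. The thiamine transporter gene had means of 42.0 in DMSO and 61.9 in dTAG at 24 h, and of 58.9 and 21.0 at 7 d. Its log2 ratio was 0.55 at 24 h and -1.45 at 7 d, a level 2.81-fold lower. For Rgs11 the means were 99.7 and 103 at 24 h, and 136 and 58.9 at 7 d. Its log2 ratio was 0.04 at 24 h and -1.19 at 7 d. At 7 d both were past the fold downward, with 4.66% of all genes. Unsorted cells at 7 d thus had lower means of Slc19a3 with dTAG, the opposite direction to the sorted 2CLC at 72 h. The times and the cells differ between these tables. In bulk samples, fewer cells of a type and less RNA per cell cannot be told apart.

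The DMSO groups of the 2 times differed as well. Between DMSO at 24 h and DMSO at 7 d the log2 ratio was 0.44 for Rgs11, 0.48 for Slc19a3 and -1.02 for Samd7. The last was past the fold, which 1.57% of all genes were in that direction. The 2C markers summed to 748 and 4477 in DMSO and dTAG at 24 h and to 897 and 12741 at 7 d. The fibroblast markers summed to 19823 and 19334 at 24 h and to 14949 and 19389 at 7 d. Their part in the members' values was not tested.

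**Figure D3:**
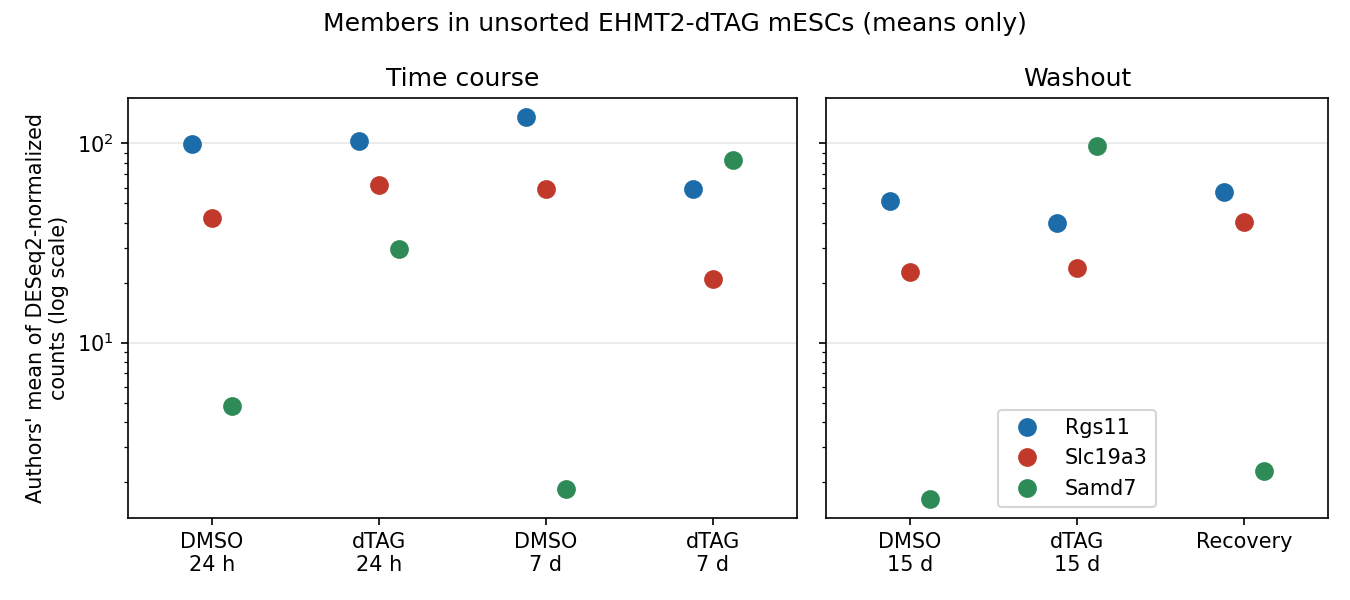
Points give the authors' mean of DESeq2-normalized counts (vertical axis, log scale) of Rgs11, Slc19a3 and Samd7 in unsorted EHMT2-dTAG mESCs, for the 4 groups of the time course (left) and the 3 groups of the washout (right), which were normalized separately. Samd7 is above 29 in each of the 3 dTAG groups and below 5 in the other 4 groups, while Rgs11 and Slc19a3 stay between 20 and 136.

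After 15 d, Samd7 alone of the 3 genes was past the fold. Samd7 had a mean of 1.65 in DMSO, 96.6 in dTAG and 2.27 in Recovery. It was 58.6-fold higher in dTAG than in DMSO and 42.5-fold lower in Recovery than in dTAG. The log2 ratio of Recovery to DMSO was 0.31. Rgs11 stood at 51.6, 39.6 and 56.9 in the same order, and Slc19a3 at 22.5, 23.6 and 40.5. None of these ratios for Rgs11 or Slc19a3 passed the fold, and the lower means of both with dTAG at 7 d were not matched in size at 15 d, with log2 ratios of -0.37 and 0.06. Slc19a3 was higher in Recovery than in DMSO, 1.80-fold.

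Against the background, 1 of the 3 genes was past the fold upward at 15 d, as were 5.45% of all genes. In Recovery against dTAG, 1 was past it downward, as were 6.96% of all genes. In Recovery against DMSO 0 of 3 were past it, as 3.2% of all genes were in either direction. Both dTAG and Recovery are set against the same DMSO group. The 2C markers summed to 3169, 24858 and 3373 in DMSO, dTAG and Recovery. The fibroblast markers summed to 20038, 23179 and 10827, with 6 of 10 past the fold downward in Recovery against DMSO and 1 of the 12 at 0. Their part in these values was not tested.

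The Dppa4 experiment is the test of the members that their choice did not use, with 3 libraries a group and values for each. Library totals were 8399885 to 12710949 reads in genes. Dppa4 had values of 700 to 920 in WT DMSO and 726 to 775 in WT UNC0638 and was 0 in all 6 libraries of the knockout, as its label states. Tests were limma with a trend on log2(normalized count + 1) over 17171 genes, two-sided, with Benjamini-Hochberg adjustment. A gene was called at an adjusted p under 0.05 and a log2 fold change of at least 1 in size. Samd7 passed the filter, 10 in at least 3 libraries, only through its WT UNC0638 libraries.

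Samd7 had the largest difference with UNC0638 among the 3 genes, and it was not called. In WT DMSO its values were 0, 2.46 and 2.62, and in WT UNC0638 they were 29.9, 15.9 and 12.0. The 3 inhibitor libraries all lay above the 3 controls. The reads behind these values were 0, 2 and 3 in DMSO and 34, 17 and 15 with UNC0638. In the knockout Samd7 was 0 in each DMSO library and 1.84, 4.30 and 2.62 with UNC0638, from 2, 4 and 3 reads. These groups did not overlap either, although all 6 values were low. With UNC0638, the 3 knockout libraries lay below the 3 WT libraries.

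For Samd7 the log2 fold change of UNC0638 against DMSO was 3.03 ± 0.93 (SE) in WT, with an unadjusted p of 0.00477 and an adjusted p of 0.56 in limma. It was 1.92 ± 0.93 in the knockout, with an adjusted p of 0.33. Knockout against WT differed by -2.32 ± 0.93 in UNC0638 (adjusted p = 0.17) and by -1.22 ± 0.93 in DMSO (adjusted p = 0.46). The difference between the UNC0638 effects, knockout minus WT, was -1.10 ± 1.31, with a 95% interval from -3.88 to 1.67 and an adjusted p of 0.86 in limma. None of these was called. Over the group, 9 reads with UNC0638 in the knockout against a floor of 3 reads in DMSO gave a ratio of 2.78. Both were taken relative to the library totals of the group. This ratio pools the libraries and takes the 9 reads as exact, so it is no lower bound on the difference, which was not called.

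Slc19a3 showed no such split. Its values were 11.6, 20.9 and 8.74 in WT DMSO and 9.69, 14.9 and 24.8 in WT UNC0638. In the knockout they were 34.2, 9.17 and 22.1 in DMSO and 33.1, 10.8 and 27.1 with UNC0638. All 4 groups overlapped. The UNC0638 effect was 0.23 ± 0.60 (SE) in WT, with a 95% interval from -1.04 to 1.51, and 0.15 ± 0.60 in the knockout, from -1.13 to 1.43. Neither was called.

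Rgs11 read 30.3, 45.5 and 56.8 in WT DMSO and 43.1, 24.3 and 34.3 in WT UNC0638, ranges that overlap. In the knockout it read 50.9, 47.9 and 38.3 in DMSO and 19.3, 25.8 and 40.2 with UNC0638, which overlap by 1 library. The UNC0638 effect was -0.36 ± 0.39 (SE) in WT and -0.72 ± 0.39 in the knockout, with adjusted p-values of 0.76 and 0.41 in limma. For knockout against WT, Rgs11 and Slc19a3 differed by 0.08 and 0.54 in DMSO and by -0.27 and 0.45 in UNC0638, with adjusted p-values from 0.63 to 0.92 in limma.

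**Figure D4:**
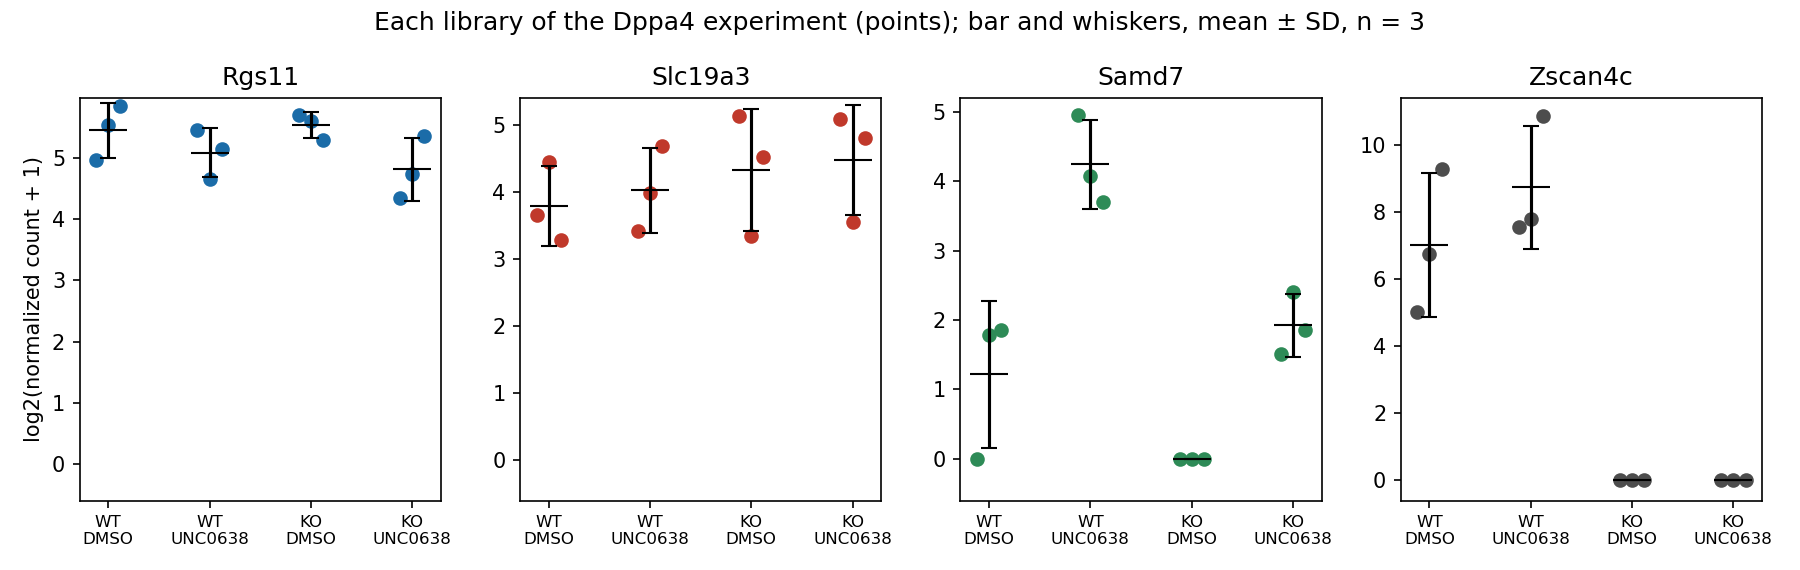
Points are the 3 libraries of each group and bars with whiskers are the mean ± SD of log2(normalized count + 1), for Rgs11, Slc19a3, Samd7 and the 2C marker Zscan4c in WT and Dppa4 KO mESCs given DMSO or UNC0638. The Samd7 libraries given UNC0638 lie above their DMSO controls in both genotypes, Rgs11 and Slc19a3 overlap between treatments, and Zscan4c is 0 in the 6 knockout libraries.

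Called members numbered 0 of 3 in all 5 contrasts. Over all genes limma called 0 (0%) for UNC0638 in WT, with 1497 at an unadjusted p under 0.05, and edgeR and DESeq2 called 0 and 14 there. It called 80 (0.466%) for UNC0638 in the knockout, 762 (4.44%) for knockout against WT in DMSO and 570 (3.32%) for that in UNC0638. For the difference of the UNC0638 effects it called 0 (0%), with 1071 at an unadjusted p under 0.05, and edgeR and DESeq2 called 0 and 0. Groups that did not overlap, with UNC0638 higher, were found for 9.81% of genes in WT and 8.88% in the knockout, and Samd7 was 1 of the 3 members in each. With UNC0638, 12.6% of genes were lower in every knockout library than in every WT library, Samd7 among them. Such shares of all genes leave little to read from the lack of overlap. By size, 99.8% of genes had a lower log2 fold change than Samd7 for UNC0638 in WT. This is a rank among genes that Samd7 joined only through its WT UNC0638 libraries.

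Samd7 and most of the 2C markers were low in the knockout. Samd7 was also low in WT DMSO, at 0, 2 and 3 reads. In DMSO, Samd7 and 18 of the 20 markers were 0 in each knockout library. With UNC0638 Samd7 was 7.01-fold higher in WT than in the knockout by summed reads, a pooled ratio with no error. Samd7 passed the filter only through the WT UNC0638 libraries. For Samd7 limma called neither difference between genotypes, with adjusted p-values of 0.46 in DMSO and 0.17 in UNC0638. Zscan4c, Zscan4d, Zfp352 and Duxf3 were 0 in all 6 knockout libraries, and 16 of the 20 markers were 0 in the knockout with UNC0638, where Samd7 had 2, 4 and 3 reads. In WT the summed markers ran from 935 to 3524 in DMSO and from 2015 to 11222 with UNC0638, and replicate 3 held the highest Zscan4c value in both groups (622 and 1855). The Samd7 value was lowest, at 12.0, in the WT UNC0638 library with the most Zscan4c. Of 16 markers that passed the filter, limma called 10 lower for knockout against WT in DMSO and 14 lower in UNC0638, and 0 for UNC0638 in either genotype. The fibroblast markers summed to 9921 to 15696 in WT and 8067 to 9998 in the knockout, and limma called Acta2 and Tagln, contractile genes, lower in the knockout in DMSO. Lum was at 0 in 3 of the 4 groups. Their part in the members' values was not tested.

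The relatives of the 3 genes serve as a comparison. Levels per kilobase of annotated exon set genes side by side only roughly. The alignment dropped reads across splice junctions, and exon length does not correct for that. On this scale Rgs11 was at 9.91 and its R7 relative Rgs9, the regulator of phototransduction, at 6.50 in DMSO mESC. In dTAG 2CLC they were 7.23 and 1.54. Rgs6 and Rgs7 stood under 0.5 per kilobase in all 11 dTAG-experiment groups. Gnb5, the partner the R7 proteins need, was 14.6 per kilobase in DMSO mESC and 7.24 in dTAG 2CLC. Its mean differed by a log2 ratio of -0.07 with dTAG in 2CLC and 0.02 in mESC. Of the 13 genes listed as R7 partners, 8 passed the filter in the time course. Past the fold were 0 at 24 h and 1 at 7 d, downward, as were 4.66% of all genes. At 7 d the median log2 ratio was -0.12, beside 0.01 over all genes. Grm6 and Rgs7bp were named after their values were seen. With dTAG, Grm6 was past the fold upward at 15 d and in sorted 2CLC, with 5.45% and 5.93% of all genes. Rgs7bp was past it downward in sorted 2CLC.

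Rgs9, which the choice of the 3 genes did not involve, was 2.33, 3.69 and 6.99 in WT DMSO and 27.3, 13.1 and 18.4 in WT UNC0638, a log2 change of 1.98 ± 0.94 (SE) with an adjusted p of 0.56 in limma. Like Samd7 it passed the filter only through the WT UNC0638 libraries, and its groups did not overlap, as those of 9.81% of genes did not in that direction. Among the R7 partners limma called Gnai1, a Gi alpha subunit, in 2 contrasts. It was lower in the knockout, by -2.04 ± 0.30 in DMSO (adjusted p = 0.00127) and by -1.53 ± 0.30 in UNC0638 (adjusted p = 0.00983). The other 7 that passed the filter were not called.

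The thiamine genes show where Slc19a3 stands among its transporters. Slc19a2, the second thiamine transporter, had the higher level per kilobase in each sorted group. It was 379 against 7.70 for Slc19a3 in DMSO mESC and 296 against 182 in dTAG 2CLC. Slc19a2 differed little with dTAG, by log2 ratios of 0.13 in 2CLC and 0.00 in mESC. The folate carrier Slc19a1 was at 57.4 per kilobase in DMSO mESC and 55.7 in dTAG 2CLC. Neither Slc19a1 nor Slc19a2 was called in any of the 5 limma contrasts of the Dppa4 experiment. Among the other thiamine genes listed, the transketolase-like genes Tktl1 and Tktl2, which were named after their values were seen, were past the fold upward with dTAG at 7 d, and 0 of 14 were past it downward.

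For Samd7, the relative Samd11, also known from photoreceptors, had means under 3 in the time course and washout and of 108 to 186 in the sorted groups, and values of 174 to 315 in the 12 libraries of the Dppa4 experiment, in tables that were normalized separately. Its log2 ratio with dTAG was 0.43 in 2CLC and 0.32 in mESC. Phc1, a Polycomb PRC1 subunit with a SAM domain, was abundant throughout, at 567 per kilobase in DMSO 2CLC and 492 in dTAG 2CLC. Of the 18 SAM domain and PRC1 genes 16 passed the filter in the time course, and 0 were past the fold upward at 24 h or 7 d. None of the 16 that passed the filter in the Dppa4 experiment was called in any of the 5 limma contrasts. The retinal cell types that Rgs11 and Samd7 are known from were checked by their own genes. Of 18 photoreceptor and bipolar cell genes 5 passed the filter in the time course and 0 were past the fold upward at 24 h or 7 d. In the other comparisons of dTAG or Recovery with DMSO, 2 genes, named after their values were seen, were past it upward. Trpm1, the channel of ON bipolar cells, had means of 6.24 and 22.1 in DMSO and dTAG at 15 d and of 13.0 and 27.3 in sorted mESC. Otx2, which acts in retina and in early embryonic cells, had 133 and 287 in DMSO and Recovery. Crx and Nr2e3, which specify photoreceptors, were at 0 in all 12 libraries of the Dppa4 experiment. In that experiment limma called only Gnat2, the cone transducin, lower in the knockout with UNC0638, by -1.62 ± 0.41 (SE) with an adjusted p of 0.0337.

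The genes beside the members were set against them by level and ratio. The 6 nearest protein-coding genes of Slc19a3, 3 on each side, had means under 4 in every group, and the highest was Gm47969, 6484 bases away, at 3.04 in dTAG 2CLC. With dTAG in 2CLC, Gm47959, Gm7544, Krtap28-10 and Gm47969 had log2 ratios of 1.02, 0.64, 1.45 and 1.62, the direction of Slc19a3. These ratios come from means near the floor, and none of these genes passed the filter. Gm47955 and A030005K14Rik were at 0 in the sorted groups. Within Slc19a3, the pseudogene Gm7539 had means of 0.59 and 0 in DMSO and dTAG mESC and 3.84 and 20.3 in DMSO and dTAG 2CLC, the order of Slc19a3 itself. In the Samd7 region, Lrrc31, Lrriq4, Lrrc34, Sec62, Gpr160 and Phc3 had log2 ratios from -0.96 to -0.01 with dTAG at 7 d, where Samd7 had 4.87. At the other times all but Gpr160 were higher with dTAG, the direction of Samd7. Their ratios were 0.11 to 0.41 at 24 h and 0.20 to 0.65 at 15 d, while Gpr160 had -0.16 and -0.66. In the sorted cells Lrrc31 had -1.01 with dTAG in 2CLC, and in DMSO Lrriq4 and Lrrc34 had -2.36 and -2.14 in 2CLC against mESC, where Samd7 had 0.03. Around Rgs11, Fam234a lies 498 bases away and had a log2 ratio of -0.61 at 7 d, and Neurl1b, 203505 bases away, had -1.10, beside -1.19 for Rgs11 itself. In dTAG mESC against DMSO mESC, Neurl1b had -1.24, beside -1.99 for Rgs11. Arhgdig, which overlaps Rgs11, had means of 82.0 and 93.1 at 7 d and of 47.2, 37.9, 26.3 and 33.0 in DMSO mESC, dTAG mESC, DMSO 2CLC and dTAG 2CLC. Among the Dppa4 libraries it ran from 83.8 to 229 in WT and from 31.3 to 78.9 in the knockout, where Rgs11 overlapped. Reads in the stretch that 2 genes on opposite strands have in common cannot be told apart without strand, so Rgs11 is uncertain over those 138 bases, while Slc19a3 and Gm7539 have 0 exonic bases in common.

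Other genes shared the course of each member over the 11 groups of the dTAG experiments. Likeness was Pearson's r of log2(mean + 1), with each experiment centred on its own mean, and each member was set against the 11072 other genes that reached a mean of 10 in some group and spanned at least 1 on that scale. It is a description over group means that share controls. Samd7 was most like Ttc29, Cd80 and Gm36229, at r of 0.99, 0.98 and 0.98. Ttc29, an axonemal gene, had means of 14.7 and 90.6 in DMSO and dTAG mESC and of 16.9 and 62.0 in 2CLC, so that with dTAG it was higher in mESC than in 2CLC. Cd80, a costimulatory receptor of immune cells, had 22.4 and 113, and 20.9 and 65.9, in the same order.

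Slc19a3 was most like Sp3os, Fam83b and Rab20, at r of 0.98, 0.96 and 0.96. Fam83b had means of 7.04, 8.87, 21.0 and 53.6 in DMSO mESC, dTAG mESC, DMSO 2CLC and dTAG 2CLC, and Rab20, a small GTPase, had 28.9, 23.1, 47.0 and 88.6. These genes had the order of Slc19a3 in the 2CLC at a smaller size. Rgs11 was most like Kif19a, Ccdc158 and 1700028B04Rik, at r of 0.96, 0.93 and 0.93. Kif19a, a ciliary kinesin, had means of 11.3, 0.26, 2.86 and 6.17 in those 4 groups, low in dTAG mESC as Rgs11 was. Between the members r was 0.39 for Rgs11 and Slc19a3, -0.61 for Rgs11 and Samd7 and -0.07 for Slc19a3 and Samd7, so the 3 genes did not share a course.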

How the data were processed

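Bulk RNA-seq of 45 libraries was used as deposited. The authors trimmed reads with Trim Galore 0.6.7 and aligned them to mm10 with STAR 2.7.10, without introns and end to end, which drops reads across splice junctions, and placed reads with several matches at 1 site at random. They counted genes of GENCODE vM25 with TEcounts at default settings, whose strand option is not given in the sources used here, and divided by DESeq2 1.34.0 size factors. The deposited signal columns are thus normalized counts: group means for the dTAG time course, the washout and the sorted cells, and 12 libraries for the Dppa4 experiment. The authors' own comparison tables (fold changes, test statistics, p-values), table of gene classes at 7 d and repeat tables were not used. Columns of samples that could not be mapped numbered 0.

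Group means were compared as log2 ratios with a pseudocount of 1. For the Dppa4 experiment limma 3.58.1 was fitted to all 12 libraries as 4 groups, with genes at 10 or more in at least 3 libraries, in R 4.3.3. All values (100%, within 0.01) were whole multiples of the smallest value of their library, which gave the reads used with edgeR 4.0.16 and DESeq2 1.42.0 as alternatives. Intervals and floors cover counting error or the spread between libraries only. Replicates differed by more than sampling noise in 12 of 12 pairs, with a chi-square of 12.2 to 55.5 per degree of freedom. Per the labels, the replicates of the Dppa4 experiment are independent clones. They do not tie a number to a clone in both treatments. Same-numbered WT libraries given DMSO and UNC0638 deviated together (r of 0.25, 0.10 and 0.43), so these numbers were taken to pair them, from the data. In the other contrasts r ran from -0.09 to 0.16, and no pairing was taken. There, 1 of 3 pairs was above 0.1 for UNC0638 in the knockout, 1 of 3 for knockout against WT in UNC0638, and 0 in DMSO. The main fit left the block out in every contrast, and fits with it are given below. The limma steps were tested on simulated data.

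The 3 genes and the gene lists were chosen with earlier results of these data known. Named besides the members were listed relatives, partners and markers, listed genes called in the Dppa4 experiment, the 3 nearest protein-coding genes on each side and the 3 genes most alike in course. Some listed genes are not reported here by name. Alternatives changed the tool, scaling, pseudocount, filter, replicate block, samples in the fit and each library left out.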

Additional observations from a re-analysis of the deposited data

How the results depend on the processing

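For the members, no alternative moved a contrast of the Dppa4 experiment past the threshold of a call. The difference between the UNC0638 effects on Samd7, -1.10 on the log2 scale, was 1.23 with edgeR and 0.41 with DESeq2, and the cause was not tested. Leaving out 1 library at a time turned the sign of 4 uncalled values, with ranges from -0.092 to 0.56 for Slc19a3 with UNC0638 in WT, -0.35 to 0.61 in the knockout, -0.58 to 0.38 for the difference between them, and -0.16 to 0.28 for Rgs11 between genotypes in DMSO. With a pseudocount of 5 in place of 1, Samd7 ratios were 1.82 at 24 h, 3.67 at 7 d, 3.93 at 15 d, -3.80 for Recovery against dTAG, 1.96 in 2CLC and 3.49 in mESC, all still past the fold. Where only means are given, spread is unknown, and a ratio was counted as moved from 0.5 on the log2 scale.

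Counts over all genes moved more. For UNC0638 in WT (0 called) DESeq2 called 14, and leaving out libraries gave 0 to 1, the latter without replicate 3 of WT DMSO or of WT UNC0638. For UNC0638 in the knockout (80 called) edgeR called 37, DESeq2 282, no filter 12 and a fit of only those 2 groups 0, and leaving out libraries gave 2 (without knockout UNC0638 replicate 2) to 372 (without knockout UNC0638 replicate 1), and 18 to 40 without any 1 of WT DMSO replicate 2, the 3 WT UNC0638 libraries, knockout DMSO replicates 1 and 2 and knockout UNC0638 replicate 3. For knockout against WT, leaving out libraries gave 280 (without WT DMSO replicate 2; 426 without its replicate 3 and 360 without knockout DMSO replicate 1) to 948 (without knockout UNC0638 replicate 3) in DMSO and 174 (without WT UNC0638 replicate 2; 195 without its replicate 3) to 625 in UNC0638, where DESeq2 called 864, and for the difference of effects 0 to 1. Without a filter, genes past the fold numbered 2775 at 24 h, 3884 at 7 d, 2799 at 15 d, 1512 for Recovery against DMSO, 3278 for Recovery against dTAG, 5195 in 2CLC, 4100 in mESC, and 9130 and 8480 between populations in DMSO and dTAG. With a pseudocount of 5 they numbered 775 at 24 h, 316 for Recovery against DMSO, 1137 in 2CLC and 1191 in mESC.

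With the replicate number as a block, counts were 0 for UNC0638 in WT, where the numbers pair the libraries, and 171 for UNC0638 in the knockout, where 1 of 3 same-numbered pairs correlated above 0.1. A replicate block within each genotype, chosen after seeing the data, gave 0 and 155. Over all contrasts 7 of 18 same-numbered pairs correlated above 0.1, and 10 of 12 libraries were nearest to their own number, a hint from the data and not from the design. The blocks changed no call on a member, and the adjusted p of Samd7 for UNC0638 in WT was 0.35 and 0.37 under them in limma. For the experiments given as means, the replicate block and leaving out libraries were not run.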
